A study of Mus musculus with 7 samples.

Results

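MITF sites lost by 72 h of RANKL are loci that carried a MITF peak in myeloid precursors (MPs) and again after 36 h of RANKL, but had no overlapping MITF peak in osteoclasts (OCs) after 72 h. There were 507 of them among the 5413 peaks of the MITF MP list, or 9.37%. A MITF MP peak was counted as lost when it overlapped a peak of the 36 h list by at least 1 bp and no peak of the OC list. The sites were thus chosen by their MITF peaks, and MITF scores are given below as a description, with no test. PU.1 scores, position and sequence were not used in the choice.

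Bone marrow cells were flushed from C57BLACK6 mice of 4 to 6 weeks and grown for 3 days with 50 ng per mL CSF1, and these cells are the MPs. The same cells received 100 ng per mL RANKL in that CSF1 medium for 36 h or for 72 h, and the 72 h cells are the OCs. At each of the 3 times DNA bound by PU.1 or by MITF was pulled down with 5 µg of antibody, and non-specific IgG was used in MPs, which gave 7 libraries and 1 per condition. Whether animals were pooled is not given in the sources used here. These 7 libraries measure no expression by which marker genes could be checked. Without replicates no error below covers differences between cultures. Wilson intervals and binomial tests cover counting only, and SDs and intervals of a median cover the spread over sites.

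MITF, of the bHLH-zip family, binds DNA at E-box sequences, and PU.1 is an Ets family factor that recognizes purine-rich sequences with a GGAA core and sets up the enhancers of myeloid cells. Both factors are needed to make OCs and they interact physically at genes of bone resorption. RANKL, acting through its receptor RANK, turns precursors that CSF1 keeps alive into bone-resorbing cells.

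Sequences of 8 of the lost sites are shown because they span the range of what was found. They are the strongest site, which lay in an intron of Lyn, 4 strong sites with both an E-box and a PU.1 core or with only the E-box, the sites with a large fall (Dab2) and a large rise (Rala) of PU.1, and the strongest site without PU.1 (Acoxl). Each is the whole MITF MP peak of the mm9 build on the forward strand, 5′ to 3′, with both ends included. Capitals mark the E-box letters CACGTG or CATGTG and the PU.1 core letters AGGAAGT or GAGGAAG on either strand, and a run of capitals can be 2 overlapping PU.1 matches.
Lyn intron, chr4:3651962-3652112: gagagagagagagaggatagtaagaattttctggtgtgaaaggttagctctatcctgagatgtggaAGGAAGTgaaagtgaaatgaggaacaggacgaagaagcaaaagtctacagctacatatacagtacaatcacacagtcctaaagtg
Nav1 intron, chr1:137530173-137530323: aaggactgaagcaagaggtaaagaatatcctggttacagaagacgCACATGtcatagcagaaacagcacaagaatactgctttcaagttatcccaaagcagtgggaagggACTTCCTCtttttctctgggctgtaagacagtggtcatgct
Ica1 intron, chr6:8637297-8637447: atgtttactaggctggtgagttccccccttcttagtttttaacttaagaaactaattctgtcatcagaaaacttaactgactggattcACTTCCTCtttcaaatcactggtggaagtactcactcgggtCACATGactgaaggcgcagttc
upstream of Klf4, chr4:55776072-55776222: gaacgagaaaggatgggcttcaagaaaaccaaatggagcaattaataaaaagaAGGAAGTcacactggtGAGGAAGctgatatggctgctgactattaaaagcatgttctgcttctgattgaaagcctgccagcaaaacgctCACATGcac
upstream of Rb1, chr14:73733769-73733919: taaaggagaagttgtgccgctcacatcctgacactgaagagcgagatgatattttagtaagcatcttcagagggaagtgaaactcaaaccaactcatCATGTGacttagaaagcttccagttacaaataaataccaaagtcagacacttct
Dab2 intron, chr15:6253905-6254055: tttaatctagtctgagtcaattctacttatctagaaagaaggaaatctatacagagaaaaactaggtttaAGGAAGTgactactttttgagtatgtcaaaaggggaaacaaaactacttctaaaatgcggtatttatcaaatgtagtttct
upstream of Rala, chr13:18052621-18052771: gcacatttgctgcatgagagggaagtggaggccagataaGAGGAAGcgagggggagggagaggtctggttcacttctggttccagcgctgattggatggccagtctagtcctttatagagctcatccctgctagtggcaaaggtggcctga
Acoxl intron, chr2:127834918-127835068: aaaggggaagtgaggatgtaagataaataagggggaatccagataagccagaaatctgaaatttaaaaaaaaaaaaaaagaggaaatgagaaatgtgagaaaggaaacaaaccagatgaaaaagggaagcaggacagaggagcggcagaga
By these marked letters the Nav1, Ica1 and Klf4 sites held an E-box and a PU.1 core, and the Rb1 site an E-box alone. The Lyn, Dab2 and Rala sites held a PU.1 core alone, and the Acoxl site neither. Other sequences with a GGAA core were not marked, and the Rb1 and Acoxl sites both hold gggaagtg.

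The score of a peak is its number of sequenced tags scaled to a common library size. In MPs the scores of the 507 sites ran from 9.3 to 48.8 with a median of 12.5 and quartiles of 10.4 and 15.6, and 67 of them stood at 9.3, the lowest score of the list (9 tags). The 2004 MITF sites found at all 3 times had a median MP score of 17.7, and the 2062 sites found only in MPs had a median of 10.4. The 840 sites that were in the MP and OC lists but missing from the 36 h list had the same median as the lost sites, 12.5. The whole MITF MP list also had a median of 12.5, with quartiles of 10.4 and 17.7. Lost sites thus had the median score of the list, between the medians of the persisting and the MP-only sites.

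The lowest peak of the MITF OC list had 8 tags and a score of 9.1, so a site below this level in OCs is absent from the list whatever its occupancy. Of the lost sites, 317 (62.5%) had an MP score under 1.5 times this limit. A score of at least 18.2, which is 2 times the limit, was reached by 74 of them (14.6%), against 47.2% of the sites found at all 3 times. The highest lost site lay 5.36 times above the limit. Among MITF MP sites that had a 36 h peak, the share missing from the OC list was 43.2% at a score of 9.3 (95% Wilson interval 35.7 to 51.1), 16.9% from 15.6 to 19.7 (14.2 to 19.9) and 1.38% from 30.1 upward (0.54 to 3.50), where it came to 4 of 289 sites.

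**Figure D1:**
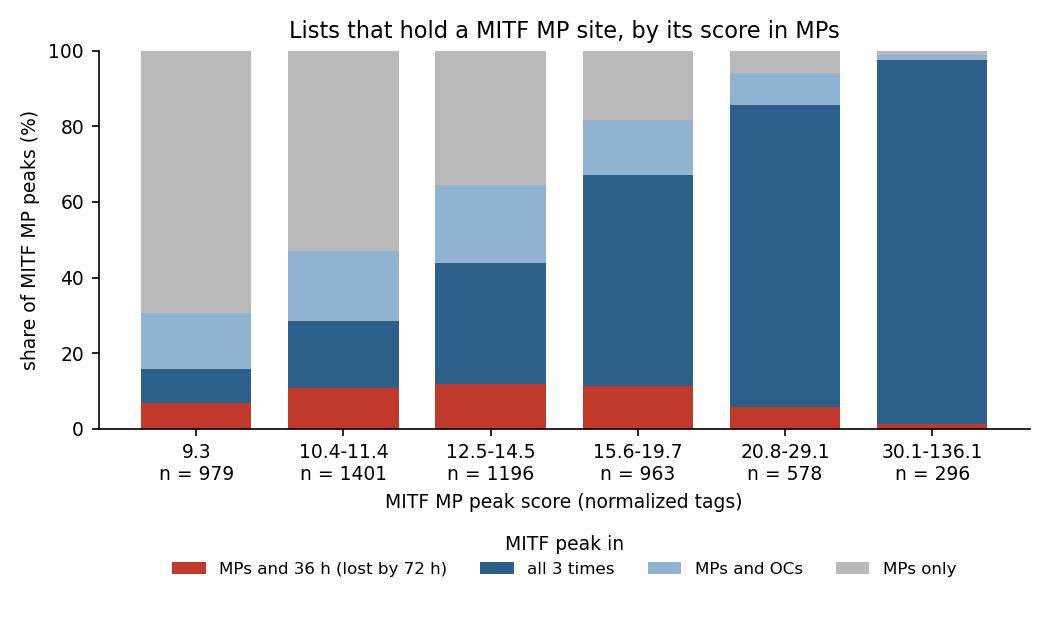
Share of MITF MP peaks (%) by the other lists that also held a MITF peak there, in 6 classes of MITF MP score (normalized tags); n is the number of MP peaks in a class. Sites lost by 72 h made up 6.84% of the lowest class, 11.96% of the class from 12.5 to 14.5 and 1.35% of the highest, where 96.3% of sites were found at all 3 times.

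At 36 h, scores depended on the width of the peak that was called. The MITF 36 h list mixes peaks of 150 bp with wider ones, from 168 bp upward, and the lowest wider peak scored 19.5. Of the lost sites, 282 (55.6%) had a 150 bp peak at 36 h, with a median of 0.85 times the MP score, and 225 had a wider peak, with a median of 2.10 times the MP score. The same ratios at sites found at all 3 times were 0.79 and 2.09. MITF scores at 36 h were therefore not compared with those in MPs. A single lost site, in an intron of the pseudogene Pisd-ps2, overlapped an IgG peak.

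PU.1 peaks were present at nearly all of the lost sites at each time. A PU.1 peak overlapped 494 of the 507 sites in MPs (97.4%, 95% Wilson interval 95.7 to 98.5), 490 at 36 h (96.7%, 94.7 to 97.9) and 489 in OCs (96.4%, 94.5 to 97.7). In 486 sites the peak was present at all 3 times, and in 9 it was present at none. The share in OCs was 99.2% at sites where MITF also persisted (98.7 to 99.5) and 96.1% at sites with MITF in MPs only (95.1 to 96.8).

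The PU.1 peaks at lost sites were stronger than most PU.1 peaks, as were those at MITF MP sites at large. At lost sites the PU.1 score had a median of 143.3 in MPs (range 11.9 to 336), 124.2 at 36 h (10.3 to 314.8) and 130.7 in OCs (10.3 to 284.9). Over all MITF MP sites the medians were close to these, at 148.4, 122.7 and 133.6. They were 145, 116.8 and 130.7 at the 840 sites missing from the 36 h list alone. In the whole PU.1 MP list the median was 23.9, and 396 of the 494 lost sites with a PU.1 MP peak (80.2%, 76.4 to 83.4) were at or above 98.9, the score that 10% of all PU.1 MP peaks reach. At persisting MITF sites the medians were higher, 189.3, 162.6 and 171.8, and at MP-only sites they were lower, 117.7, 91.6 and 102.8. The order of persisting, lost and MP-only sites was the same at every time. The quartile range of lost sites overlapped that of persisting and that of MP-only sites at each time.

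Because MITF and PU.1 scores went together, sites of like MITF strength were also set side by side. With MITF MP scores from 9.3 to 11.4, the median PU.1 MP score was 124.5 at lost sites, 134.8 at persisting sites and 104.1 at MP-only sites. From 15.6 to 19.7 the medians were 168.9, 185.1 and 162.1. Within a class of MITF score the gap between lost and persisting sites was smaller than over all sites.

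**Figure D2:**
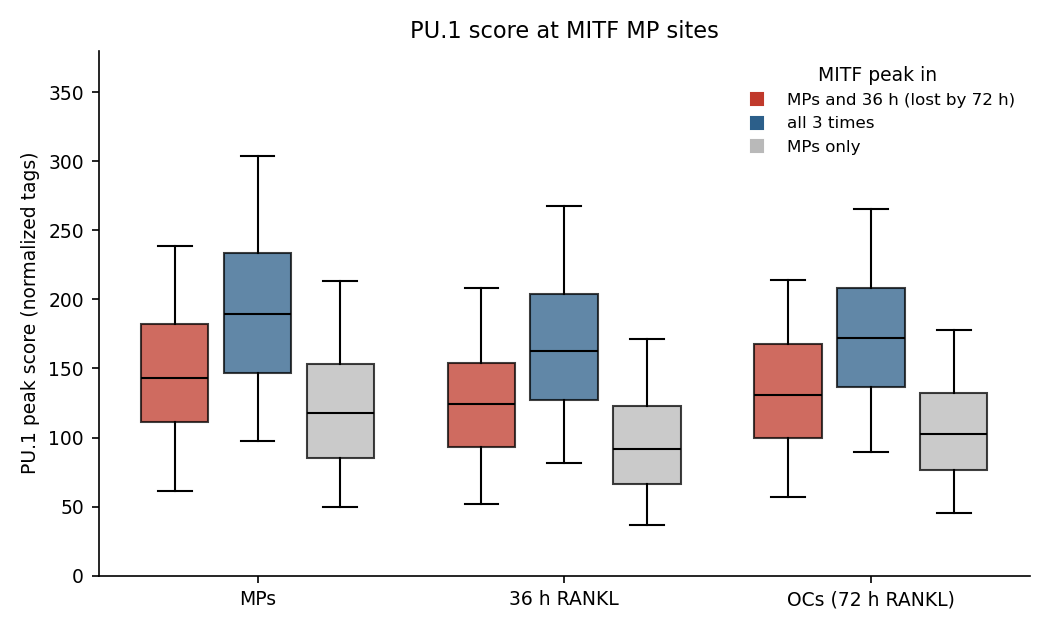
PU.1 peak scores (normalized tags) in MPs, after 36 h and in OCs at MITF MP sites with a PU.1 peak, where boxes give the quartiles and the median and whiskers the 5th and 95th percentiles over sites. Lost sites lay between the persisting and the MP-only sites at each time, with medians of 143.3, 124.2 and 130.7.

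PU.1 was then followed over time at the same loci. Scores were divided by the worth of 1 tag to give tags, and the tags of each pair of overlapping PU.1 peaks were tested with an exact binomial test against the median ratio of all pairs. The log2 change is relative to that median, so 0 means the change of a typical PU.1 peak. From MPs to OCs the change at 487 lost sites had a median of -0.12 (95% interval of the median -0.14 to -0.09, SD over sites 0.28), with 328 sites below 0 and 159 above. The median at persisting MITF sites was also -0.12, and it was -0.18 at MP-only sites. Among all PU.1 pairs with the same number of tags in all as the middle range of lost sites (135 to 221 tags, 4477 pairs) the median was -0.11, and it was -0.11 at the 243 lost sites in that range. In that range the lost sites and the equally strong PU.1 pairs thus had the same median to the digits shown, and no test was run between them. The equally strong pairs are all pairs in the range, with the lost sites among them. At lost sites with a MITF MP score of at least 18.2 the median was -0.20 (-0.24 to -0.14, n = 71 sites). No pairs of like strength were set beside those sites.

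The shift lay between MPs and 36 h. From MPs to 36 h the median change at lost sites was -0.12 (-0.15 to -0.08, SD 0.35, n = 487 sites) and from 36 h to OCs it was -0.01 (-0.05 to 0.02, SD 0.28, n = 487 sites). Pairs with the same number of tags gave -0.12 and 0.01. When tags were instead scaled by library size, the median of all PU.1 pairs itself lay at -0.12 from MPs to 36 h and at 0.11 from 36 h to OCs, and the medians at lost sites became -0.24 and 0.09, while PU.1 peaks of the 36 h list were 190 bp wide where those of MPs and OCs were 150 bp, and the part of scaling and width in the result was not tested.

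A change was called when the Benjamini-Hochberg adjusted p over all pairs was under 0.05 and the change at least 2-fold. From MPs to OCs 1 of 487 lost sites was called, and over all 60099 PU.1 pairs 0.156% were called. From MPs to 36 h 2 of 487 sites were called, with 1.05% called over all 56335 pairs. From 36 h to OCs 1 of 487 sites was called, with 0.0707% called over all 58008 pairs. Counts of 1 or 2 sites do not set the lost sites apart from all pairs. At an unadjusted p under 0.05 of the same exact binomial test there were 60 lost sites (12.3%) from MPs to OCs, 96 (19.7%) from MPs to 36 h and 43 (8.83%) from 36 h to OCs. Over all pairs the shares were 7.84%, 10.9% and 6.45%, at a median of 39, 38 and 40 tags per pair against 177, 168 and 175 at lost sites. At all MITF MP sites the shares were 15.2%, 21.6% and 8.34%. The called site from MPs to OCs lay in an intron of Dab2, which encodes an endocytic adaptor. Its PU.1 score was 110.9 in MPs, 38.4 at 36 h and 47 in OCs, a log2 change of -1.22 from MPs to OCs (exact binomial test, adjusted p = 0.0397) and -1.40 from MPs to 36 h (adjusted p = 0.00437). PU.1 at the Dab2 site was thus already low at 36 h, and it was low again at 72 h.

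A distal site 424551 bp upstream of Mef2c, which encodes a MADS-box factor of muscle, neurons and hematopoietic cells, was the other one called from MPs to 36 h. Its PU.1 score was 117.7, 53.2 and 67.5 at the 3 times (log2 change -1.02, exact binomial test, adjusted p = 0.0446). The site called from 36 h to OCs, chosen for naming after its values were seen, lay in an intron of Sgsm1 and had PU.1 scores of 71.6, 118.3 and 54.3 (log2 change -1.23, adjusted p = 0.024, same exact test). It was the only one of these sites with its highest PU.1 at 36 h. Without the 2-fold limit, 12 of 487 lost sites passed the adjusted p from MPs to 36 h, all of them lower at 36 h. Of all pairs 1.38% passed by this rule, at a lower median of tags per pair. The 12 sites included those near Rb1 and Snx6.

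From MPs to OCs 3 of 487 lost sites passed the adjusted p at any fold, all of them lower in OCs. Of all pairs 0.186% did so, at a median of 39 tags per pair against 177 at lost sites. The 3 lost sites were the Dab2 site and 2 with falls under 2-fold. A site 3499 bp downstream of the start of Otor, which encodes a small secreted protein of the cochlea, had PU.1 scores of 223.5, 130.1 and 116 (log2 change -0.92, exact binomial test, adjusted p = 0.0126). An intronic site of Lcp2, which encodes an adaptor that links immune receptors to phospholipase C, had 201.3, 130.1 and 108.7 (-0.87, exact binomial test, adjusted p = 0.0349). At both, PU.1 went down at each step. Near Napepld, an enzyme of N-acylethanolamine synthesis, scores were 73.3, 29.6 and 30.8 (-1.23), which did not pass (adjusted p = 0.147, same exact test).

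No rise from MPs to OCs passed the test. The largest was at a site 16623 bp upstream of Rala, a Ras-like GTPase, with scores of 35.8, 75.4 and 85.2 (log2 change 1.27, exact binomial test, adjusted p = 0.09). The next were near the adaptor gene Fyb (0.66), in introns of Agap3 (0.58) and of the cytokine receptor gene Csf2rb2 (0.57), and near the CREB coactivator gene Crtc3 (0.51), with adjusted p from 0.494 to 0.809 in the same exact test. All 5 of these sites had their highest PU.1 score in OCs.

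**Figure D3:**
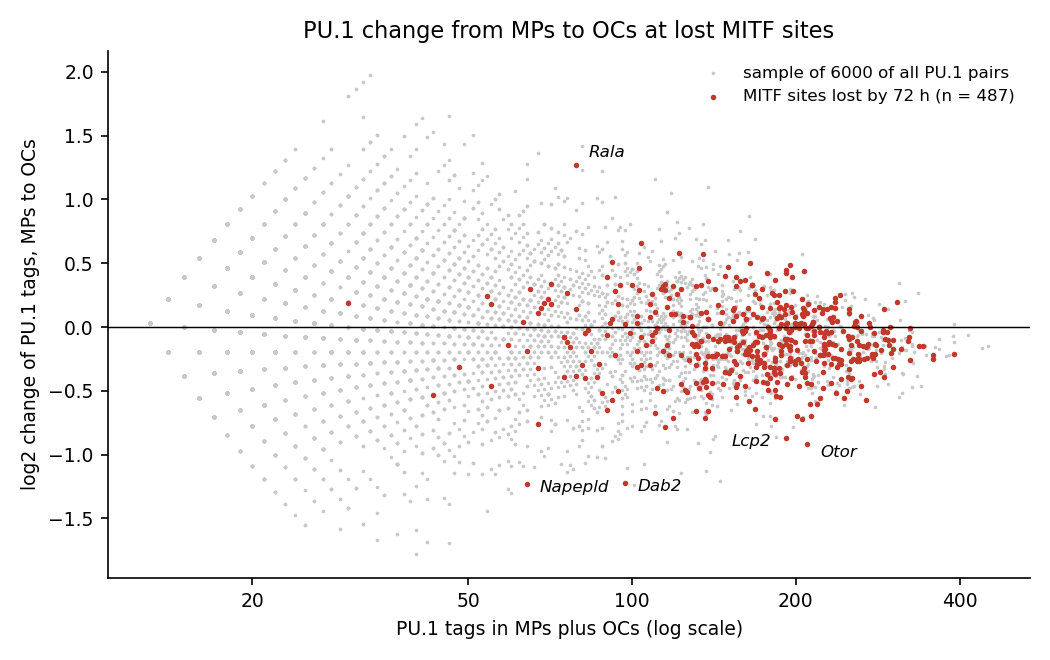
Log2 change of PU.1 tags from MPs to OCs against the tags of both libraries together (log scale) for the 487 lost MITF sites (red) and a random sample of 6000 of the 60099 PU.1 pairs (grey), with 0 as the median of all pairs. Lost sites sit to the right, with many tags, and spread around a median of -0.12 within the cloud of all pairs, with Dab2 and Napepld lowest and Rala highest.

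PU.1 was missing at some time from 21 lost sites, and 9 had no PU.1 peak in any list. The strongest of the 9 lay in an intron of Acoxl on chromosome 2 and is named in the lists for Bcl2l11, which encodes the pro-apoptotic protein BIM. Its MITF score was 28 in MPs and 379.6 in a 36 h peak of 696 bp, and a MITF OC peak with a score of 21.7 was centered 422 bp away. The next, near the end of chromosome 2 and named for Polr3k, scored 24.9 in MPs and 23.4 at 36 h. A site near Vmn1r2 at the start of chromosome 4 had 14.5 and 76.9. The other 6 had MITF MP scores of 9.3 to 12.5, which is at or near the calling limit.

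Several of these sites share sequence with other loci. Words of 32 bases were counted over the genome on both strands, and in 4 of 505 lost sites with sequence (0.79%, 0.31 to 2.02) more than 50% of the words occurred again, against 0.54% of all MITF MP sites (0.37 to 0.77). Of these 4, 3 were among the 9 sites without PU.1. Another group, chosen after its values were seen, lay beside the pseudogene Pisd-ps2 on chromosome 17 (3 sites) and beside Pisd on chromosome 5 (2 sites), where between 22 and 79 of 120 words had copies elsewhere. PU.1 scores there were at most 17.1. Of sites named elsewhere in the text, those at Csf2rb2 (51 of 120), Cdk6 (45), Tyrobp (25), Napepld (22) and Lyn (21) also had words that occurred again. The mapping could split reads between near-identical copies, and values at these sites are uncertain.

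Lost sites lay at distances from start sites close to those of MITF and PU.1 peaks at large. On the GENCODE annotation of mm9, 505 of them lay on main chromosomes, at a median of 10449 bp from the nearest transcription start site (TSS), against 10831 bp for all MITF MP sites and 10763 bp for all PU.1 MP peaks. The class of 10 to 100 kb held 225 sites (44.6%, 40.3 to 48.9), against 46.3% of all MITF MP sites and 45.4% of all PU.1 MP peaks, and 32 sites lay beyond 100 kb. Introns held 47.7% (43.40 to 52.08), intergenic sequence 46.5% (42.2 to 50.9) and exons 5.74% of the lost sites. For all MITF MP sites these shares were 51.4%, 42.9% and 5.66%. At the 840 sites missing from the 36 h list alone, introns held 55.5% (52.10 to 58.80) and intergenic sequence 38.2% (35.0 to 41.6). Neither interval overlapped that of the lost sites, and the difference was not tested. Within 1 kb of a TSS were 67 sites, or 13.3% (10.6 to 16.5), against 9.64% of persisting MITF sites (8.42 to 11.01), 11.5% of all MITF MP sites (10.6 to 12.3) and 14.4% of all PU.1 MP peaks. The first 2 of these intervals overlapped by a small margin, and no test was run between them.

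These start sites are of any GENCODE gene, including small RNA genes and pseudogenes. With coding genes only, 11.7% of lost sites lay within 1 kb of a TSS. PU.1 at the 67 sites within 1 kb of any TSS had median scores of 130.4 in MPs, 121.2 at 36 h and 121.9 in OCs. Their median log2 change from MPs to OCs was -0.01 (95% interval of the median -0.12 to 0.08, n = 65 sites). At sites 10 kb or more from a TSS the medians were 148.4, 124.2 and 133.6, with a change of -0.13 (-0.15 to -0.09, n = 250 sites). The intervals of the median change at proximal and distal lost sites overlapped, and the difference was not tested.

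Sequence within 100 bp of the peak center was searched on both strands for E-boxes (CACGTG or CATGTG) and the PU.1 core (AGGAAGT or GAGGAAG, which overlap in GAGGAAGT). Other sequences with a GGAA core, such as GGGAAGT, were not counted, so a site without the PU.1 core can still hold one. An E-box was found in 90 of 505 lost sites (17.8%, 14.7 to 21.4). This is close to the 16.99% of all MITF MP sites and the 17.4% of all PU.1 MP peaks (17.1 to 17.7). The share was 14.5% at persisting sites (13.0 to 16.1) and 19.2% at MP-only sites (17.6 to 21.0). CATGTG accounted for 73 of the lost sites with an E-box and CACGTG for 18. The PU.1 core was found in 340 lost sites (67.3%, 63.1 to 71.3), between the 73.7% of persisting sites (71.8 to 75.6) and the 61.4% of MP-only sites (59.3 to 63.5), and above the 56.8% of all PU.1 MP peaks (56.4 to 57.1). Over all MITF MP sites the share was 67.6% (66.3 to 68.8), close to that of the lost sites.

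The letters TGANTCA, as bound by AP-1 factors, were in 13.3% of lost sites (10.6 to 16.5), 9.54% of persisting sites (8.33 to 10.9) and 11.5% of all PU.1 MP peaks (11.3 to 11.8). They were in 14.2% of MP-only sites (12.8 to 15.8) and 11.7% of all MITF MP sites. The Ets-IRF composite element was in 11.3% of lost sites (8.81 to 14.3) and 13.2% of persisting sites. TGTGGT, as bound by RUNX factors, was in 17.2% and 17.8%. Mean GC content was 47.6% at lost and 47.3% at persisting sites. Of the lost sites, 135 (26.7%) held neither the E-box letters nor the PU.1 core letters searched for, and other GGAA sequences in them were not counted.

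Motif content went with small differences in PU.1. Lost sites with the PU.1 core had a PU.1 peak in OCs in 98.8% of 340 sites, and those without it in 92.7% of 165. Their median PU.1 scores in MPs were 140.8 and 150.1. With an E-box the median PU.1 MP score was 160.3 and without it 139.9, while the median MITF MP score was 12.5 in both groups. Lost sites with and without an E-box thus had the same median MITF score.

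**Figure D4:**
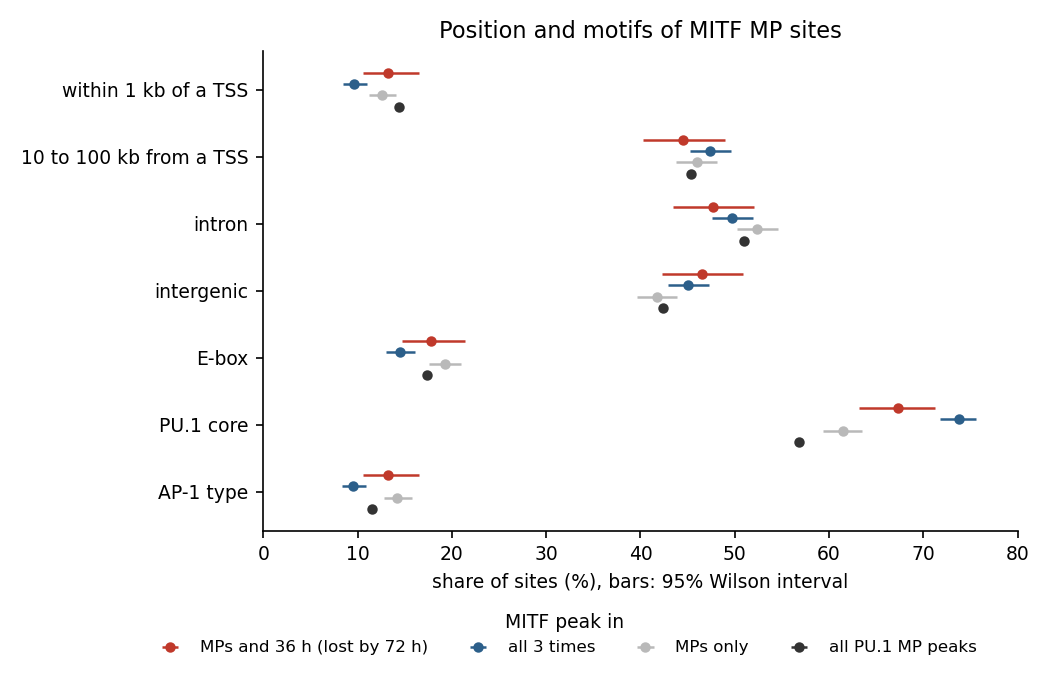
Share of sites (%) in classes of position and with motifs within 100 bp of the peak center, for MITF sites lost by 72 h, found at all 3 times or found in MPs only, and for all PU.1 MP peaks; bars are 95% Wilson intervals. Lost sites had 13.3% within 1 kb of a TSS and 67.3% with the PU.1 core. Their intervals overlapped those of the other MITF sites shown, except for the PU.1 core at sites found at all 3 times (73.7%). MITF sites missing from the 36 h list alone are not shown.

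The strongest lost site lay in an intron of Lyn, which encodes a Src family kinase of myeloid signaling, and its sequence opens the set above. It is named in the lists for 6330407A03Rik, and the nearest coding TSS, that of Lyn, was 31567 bp away. MITF scored 48.8 in MPs and 28.2 at 36 h, and the nearest MITF OC peak was 39544 bp away. PU.1 there scored 206.4 in MPs, 147.8 at 36 h and 123.3 in OCs, so it went down at each step, but the change from MPs to OCs did not pass the test (log2 change -0.72, exact binomial test, adjusted p = 0.0946).

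A site 4068 bp upstream of Psap, which encodes the precursor of the lysosomal saposins, was next, with a MITF score of 37.4 in MPs and 24.3 at 36 h. Its PU.1 score was 226.9, 242.4 and 255.5. Here a MITF OC peak with a score of 24 was centered 482 bp away, so MITF was not gone from the neighborhood. The site at the start of Pik3cg, the catalytic subunit of PI3K gamma, scored 31.2 and 65.2 for MITF and 223.5, 208.4 and 198.2 for PU.1, and it held an E-box and a PU.1 core.

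Further strong sites lay 10 kb or more from a TSS, except the one near Plekhg3. The site 25140 bp upstream of Snx6, a sorting nexin gene, had MITF scores of 30.1 and 25.3, and its PU.1 score was 206.4, 109.4 and 133.6. In an intron of Ttc7b MITF scored 29.1 and 56.5, and PU.1 stayed between 246.7 and 264.4. A site 120155 bp from the TSS of Rreb1 scored 28 and 11.7 for MITF and 307, 270.5 and 259.9 for PU.1. Nav1 and Ica1, which have the E-box and PU.1 core shown above in introns, had MITF MP scores of 26. PU.1 was 266.1, 217.3 and 242.3 at Nav1 and 209.8, 143.4 and 148.3 at Ica1. The 10th site, 5741 bp upstream of Plekhg3, had 24.9 for MITF and 112.6, 75.4 and 105.7 for PU.1. The Polr3k site, which had no PU.1 peak, had the same MITF MP score as the Plekhg3 site. Of the lost sites with a score of 24.9 or more, the Acoxl and Polr3k sites thus had no PU.1 in OCs.

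The highest MITF scores at 36 h, beyond those already given, belonged to wide peaks. They were 121.7 at a site in an exon of Atf6 that is named for Olfml2b, 104.1 at a site 364023 bp downstream of the start of Gata6, 86.6 upstream of Mtpn and 77.9 in an intron of Tnfrsf11a. The Olfml2b site had no overlapping PU.1 peak in MPs and then PU.1 scores of 279.4 and 248.2. Its 36 h MITF peak was 363 bp wide, and a MITF OC peak was centered 190 bp away. PU.1 peaks were matched by overlap alone, so a PU.1 MP peak just outside the site would not be counted. At the Gata6 site PU.1 went from 66.5 in MPs to 116.8 at 36 h and 63.1 in OCs, so it too was highest at 36 h. At Tnfrsf11a, the gene of the RANKL receptor RANK, PU.1 scored 153.5, 146.3 and 160.1.

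Genes were taken as the nearest RefSeq transcripts that the lists name. The 507 sites were named for 465 genes or transcripts, of which 225 (48.4%, 43.9 to 52.9) were also named for a MITF peak in OCs. Of the remaining 240, 196 had no MITF MP peak beside the lost sites. For genes of MP-only sites the share with a MITF OC peak was 40.6%. The nearest MITF OC peak was a median of 53897 bp away, within 10 kb for 90 sites (17.8%, 14.7 to 21.3) and within 1 kb for 13.

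At the margin of the rule, the lost sites nearest to a MITF OC peak were at Olfml2b, Clmp and Acoxl, with centers 190, 264 and 422 bp apart. The smallest overlap that kept a site out of the lost group was 17 bp. In OCs a PU.1 peak was present at 78 of the 90 lost sites with a MITF OC peak within 10 kb (86.7%) and at 411 of the other 417 (98.6%), a difference that was not tested. The sites beside Pisd-ps2, Pisd and Acoxl are among these 90.

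Genes of OC biology were gathered in 11 lists. Of 140 listed genes with a MITF MP peak, 23 (16.4%) had a lost site, and over all 3600 genes named in the MITF MP list the share was 12.9%. Counts were 7 of 15 genes for CSF1, RANK and costimulatory signaling and 4 of 16 for integrins, podosomes and fusion. They were 3 of 15 for factors listed as restraining OCs, 3 of 7 for the cell cycle and 2 of 18 for factors that promote OCs. There was 1 of 10 for OC effectors (Scin), Toll-like receptors (Tlr13) and chemokine receptors (Cmklr1), 1 of 14 for lysosome and V-ATPase (Rragc), and 0 of 16 for Fc, complement and scavenger receptors and 0 of 9 for the interferon pathway. Most counts are of few genes and no test was run on the lists.

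In the list of CSF1 and RANK signaling the genes were Btk, Csf1r, Csf2ra, Plcg2, Tnfrsf11a with 2 sites, Tyrobp and Vav3. Csf1r, the receptor of CSF1, had its lost site at the TSS. MITF scored 18.7 there in MPs and 9.7 at 36 h, and PU.1 scored 107.5, 81.3 and 74.9 (log2 change from MPs to OCs -0.50, exact binomial test, adjusted p = 0.716). At Btk, a kinase that acts with RANK through phospholipase C gamma, the site was centered 28 bp from the TSS, with MITF at 15.6 and 9.7 and PU.1 at 107.5, 87.2 and 110.1. Plcg2, that phospholipase, had an intronic site with MITF at 15.6 and 10.7 and PU.1 at 165.5, 175.9 and 182.1. At the site 19120 bp upstream of Tyrobp, the adaptor of costimulatory receptors, PU.1 went the other way, with 129.6, 165.6 and 170.3 (log2 change 0.42, exact binomial test, adjusted p = 0.64). Btk and Tyrobp had no MITF peak in OCs, whereas 1 MITF OC peak was named for Csf1r and 4 for Plcg2. PU.1 scored 237.1, 205.5 and 201.2 at the distal site named for Vav3, a guanine nucleotide exchange factor for Rac.

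Among genes of adhesion and the cytoskeleton, Wipf1, which encodes a partner of WASP in actin assembly, had 3 lost sites of its 6 MITF MP peaks. Their MITF MP scores were 23.9, 12.5 and 10.4. PU.1 at the strongest, 24895 bp upstream, was 240.5, 174.4 and 204.1, and the site 32 bp from the TSS had 214.9, 158.2 and 183.6. PU.1 was lowest at 36 h in all 3. The integrin genes Itga4 and Itga5 had 1 lost site each, with PU.1 at 160.3, 152.2 and 160.1 and at 226.9, 242.4 and 201.2. Tprg, a gene outside the lists, also had 3 lost sites, with MITF MP scores of 19.7, 14.5 and 12.5, and PU.1 there was between 175.7 and 223.5 in MPs and between 118.9 and 174.7 in OCs.

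The list gathered as restraining factors had lost sites at Klf4, Bach1 and Irf8, which encode transcription factors. The place of Bach1 among factors that hold back OC formation is uncertain. The Klf4 site, 230800 bp upstream and shown above with its E-box, had MITF scores of 21.8 and 23.4, and PU.1 scores of 175.7, 94.6 and 145.4. At Bach1 MITF scored 14.5 and 50.6, and PU.1 scored 69.9, 90.2 and 77.8. At Irf8 MITF was near the calling limit in MPs (10.4), and PU.1 hardly varied, with 185.9, 186.2 and 189.4. Of the factors that promote OCs, Tfec, a close relative of MITF, had a lost site 14 bp from a TSS with MITF at 12.5 and 36 and PU.1 at 170.6, 141.9 and 124.8. The other, named for Bhlhe40, lay 123503 bp away in an intron of Itpr1, with MITF at 9.3, the lowest score of the list.

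In the cell cycle list, the site 8215 bp upstream of Rb1, the retinoblastoma gene, was the strongest, with MITF scores of 22.9 and 24.3. PU.1 was 259.3 in MPs, 140.4 at 36 h and 171.8 in OCs, lower at 36 h by the adjusted p (log2 change -0.76, exact binomial test, adjusted p = 0.0109) but not by the 2-fold limit. At Mcm5, a subunit of the replicative helicase, PU.1 was 213.2, 133 and 129.2, and at Cdk6 it was 110.9, 85.7 and 101.3. The effector gene Scin, which encodes an actin-severing protein, had MITF at 9.3 in MPs and PU.1 highest at 36 h, with 63.1, 102 and 57.3. Across the listed sites the direction of PU.1 from MPs to OCs was mixed, and none was called changed from MPs to OCs.

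**Figure D5:**
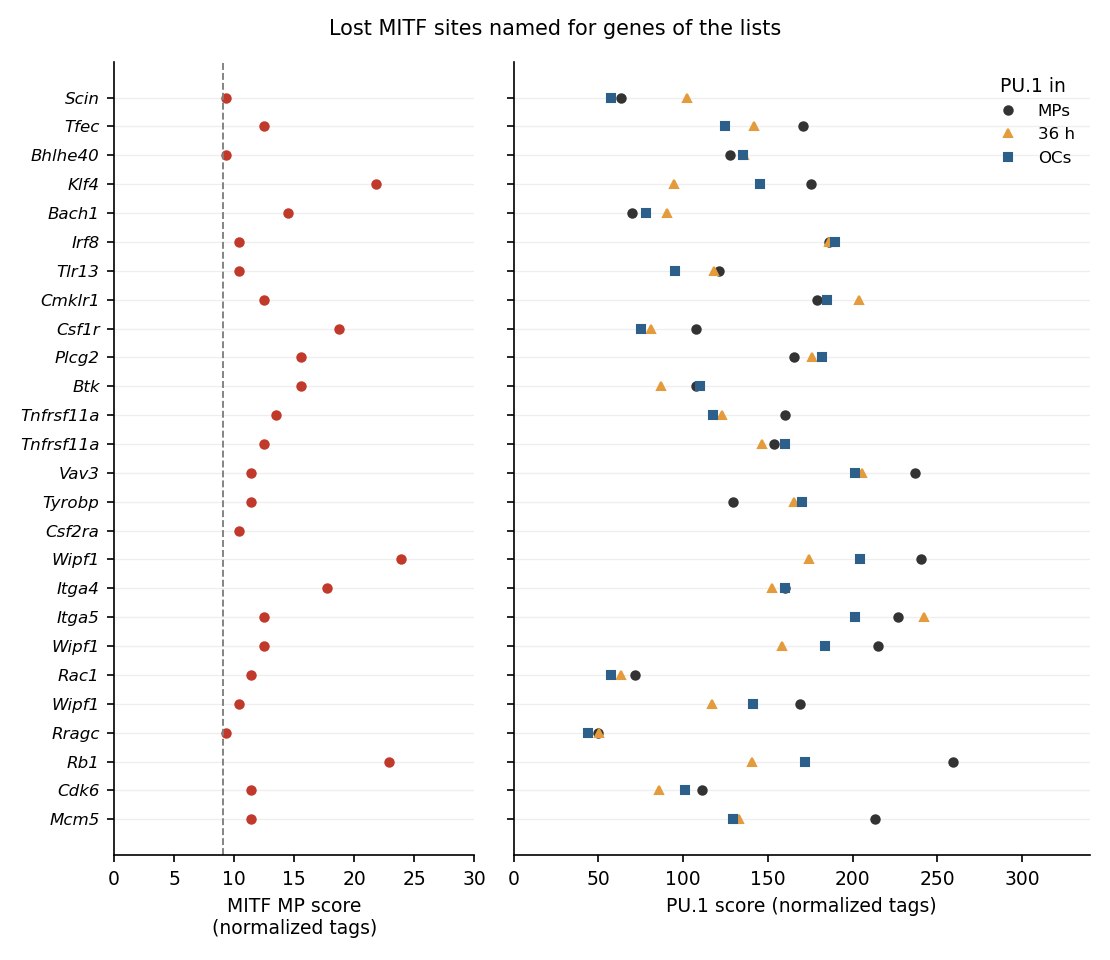
MITF MP score (left, dashed line at 9.1, the lowest score of the MITF OC list) and PU.1 score in MPs, at 36 h and in OCs (right), in normalized tags, for the 26 lost sites named for 23 listed genes, 1 site per line. PU.1 peaks remained in OCs at 25 of the 26 sites, with scores from 44.1 at Rragc to 204.1 at Wipf1, and the site named for Csf2ra had none.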

How the data were processed

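ChIP-Seq libraries were prepared for PU.1 and MITF from mouse bone marrow MPs, after 36 h of RANKL and from OCs, and for IgG from MPs. Per the labels, the authors processed reads with CASAVA 1.8, mapped them with Bowtie2 to mm9 and called peaks with HOMER, with further versions and settings not given in the sources used here. The authors deposited 1 peak list per library with positions, the nearest RefSeq transcript and a peak score, a signal in tags scaled to a common library size. No reads were analysed.

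Within a list all scores were multiples of the worth of 1 tag (tolerance 0.05), which gave the tags per peak. If HOMER's default of 10000000 tags was used, the PU.1 and MITF libraries held 5860000 to 10270000 tags. Peaks that shared 1 bp or more were matched, with the highest taken where several did. PU.1 tags of all overlapping pairs were compared by an exact binomial test against their median ratio, with Benjamini-Hochberg adjustment. Shares have 95% Wilson intervals. Positions and motifs were read at peak centers from NCBIM37 (mm9) and GENCODE vM1 on chromosomes 1 to 19, X and Y, and symbols from RefSeq genes of GRCm38.p6, by name only, with 42 sites left without a symbol.

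The sites and the gene lists were chosen with earlier results of these data known. Named sites were the 10 highest by MITF MP score, the next 5 by 36 h score, the 5 largest PU.1 rises and falls, up to 5 without PU.1, up to 3 per gene list and the genes with most sites. Alternatives were a cut at 2 times the lowest score, for all lists or for the sites alone, other matching rules, no IgG peaks, main chromosomes, lists of equal size, no MITF OC peak within 500 bp, library size scaling, no fold limit, coding genes, GENCODE genes and a 50 bp motif window. The tests were tested on simulated data. Python 3.11.15, numpy 2.4.6, scipy 1.17.1, pysam 0.24.0 and matplotlib 3.10.9 were used.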

Additional observations from a re-analysis of the deposited data

How the results depend on the processing

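Of 99 values computed under 13 alternatives for 14 results, 78 stayed within the interval of the value reported or within 1.5 times a count, and 21 moved. With all lists cut at 2 times their lowest score, 257 sites were lost, PU.1 shares were 98.83%, 99.22% and 99.22% in MPs, at 36 h and in OCs, and 0 sites changed from 36 h to OCs and 2 from MPs to OCs. With the sites alone at 2 times the lowest MITF OC score, 74 remained, 0 changed in each of the 3 comparisons, the median log2 change from MPs to OCs was -0.20, an E-box was in 24.32% and 41 genes kept a MITF OC peak. These counts fall by construction, since fewer sites were tested. Called sites from MPs to 36 h numbered 1 with lists of equal size, 11 with library size scaling and 12 with no fold limit, against 2. From MPs to OCs 3 were called with lists of equal size and 3 with no fold limit, against 1, and from 36 h to OCs 0 with library size scaling, against 1. For the shift in scaling and the cut of the lists the cause was not tested. In a window of 50 bp, 8.91% had an E-box and 60.59% the PU.1 core, which a shorter sequence lowers by construction. The median change from MPs to OCs stayed below 0 under each alternative run on it. The change from 36 h to OCs, with a median of -0.01, was 0.09 on the library size scale, which adds the shift of all pairs by construction. No paired analysis was possible because each condition has 1 library. At this depth a MITF site with under 8 tags in OCs cannot be listed, so a weaker MITF signal there was not detectable.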

Other observations

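At the 74 lost sites with a MITF MP score of at least 18.2, the median PU.1 score was 192.8 in MPs, 151.5 at 36 h and 162.2 in OCs, and the median log2 change from MPs to OCs was -0.20 (95% interval of the median -0.24 to -0.14, n = 71 sites). Of these 74, 40 had a wider MITF peak at 36 h. Over all lost sites the scores were 143.3, 124.2 and 130.7 and the change was -0.12 (-0.14 to -0.09), and the 74 are part of these sites. At persisting MITF sites of any score the change was -0.12 (-0.13 to -0.11). Neither persisting sites nor PU.1 pairs of like strength were set beside the 74, and the difference was not tested.

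Lost sites with a wider MITF peak at 36 h (225 sites) had a median PU.1 score of 138.9 at 36 h and those with a 150 bp peak (282 sites) had 113.8, while their PU.1 change from MPs to 36 h was -0.11 and -0.12. An E-box was in 17.3% and 18.1% of them.

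In the opposite direction, 348 of the 4443 MITF OC peaks overlapped a 36 h peak and no MP peak, fewer than the 507 lost sites. The lists differ in length and in calling limit, and their part in this difference was not tested.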
